A study of Mus musculus with 5 samples.

Results

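A set of 9 transcripts, most of them noncoding, A630089N07Rik, Kcnq1ot1, Gm10785, Gm17821, Vmn2r55, A130077B15Rik, Grk4, F830016B08Rik and D630045M09Rik, varied together from cell to cell among CD3+ cells sorted from the mouse brain and labelled as T cells. They were picked by name because earlier results had shown them to track together, and all 9 were found among the 2967 rows of the table (2926 mouse genes and 41 spike-in RNAs). Their shared variation is therefore a description and was not tested.

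The cells were CD3+ cells from the brain hemisphere on the side of an infarct set in the cortex by photothrombosis (light acting on a circulating dye) in wildtype C57BL/6 mice 14 days later. Both groups had the stroke: mice of the trained group (3 samples) used running wheels from day 2, and those of the untrained group (2 samples) did not train. The labels give neither the age and number of mice per sample nor whether mice were pooled, so the spread between samples may be technical. SORT-seq, which barcodes each sorted cell in a well of a 384-well plate, left 144 and 190 cells for untrained samples 1 and 2 and 66, 124 and 168 cells for trained samples 1, 2 and 3.

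Long noncoding RNAs are transcribed like messenger RNAs but make no known protein. Kcnq1ot1 is the best studied of the 9: it is made from the paternal chromosome, runs antisense through the potassium channel gene Kcnq1 and silences neighbouring imprinted genes on the same chromosome. RefSeq (assembly GRCm38.p6) lists A630089N07Rik, Gm10785, A130077B15Rik and D630045M09Rik (there under the symbol Eprn) as long noncoding RNAs too, whereas the GENCODE M21 annotation calls A630089N07Rik protein coding. Gm17821 is a pseudogene. The 3 protein-coding members belong to families with defined roles: Vmn2r55 is a receptor of the vomeronasal organ, where pheromones are sensed, Grk4 is a kinase that phosphorylates activated G protein-coupled receptors, and F830016B08Rik is an interferon-inducible GTPase. Of 2907 mouse genes of the table matched to RefSeq, 53 were long noncoding RNAs (1.82%) and 2833 were protein coding (97.5%), so long noncoding RNAs made up 5 of the 9 but few of all rows.

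The start regions of 4 of the noncoding members are shown to let their sequences be compared, each from 250 bases before to 50 bases after the annotated start, from RefSeq on GRCm38.p6 and printed 5′ to 3′ on the strand of the gene. Capitals mark CCAAT or its reverse complement ATTGG, the CCAAT box of many promoters.
A630089N07Rik, chr16:98082390-98082689, minus strand: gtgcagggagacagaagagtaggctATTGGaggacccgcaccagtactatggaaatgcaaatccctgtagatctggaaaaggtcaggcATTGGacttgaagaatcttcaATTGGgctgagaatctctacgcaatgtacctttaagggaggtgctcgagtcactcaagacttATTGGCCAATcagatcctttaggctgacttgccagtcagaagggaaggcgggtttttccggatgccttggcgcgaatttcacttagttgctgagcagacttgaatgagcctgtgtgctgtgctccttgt
Kcnq1ot1, chr7:143296498-143296797, minus strand: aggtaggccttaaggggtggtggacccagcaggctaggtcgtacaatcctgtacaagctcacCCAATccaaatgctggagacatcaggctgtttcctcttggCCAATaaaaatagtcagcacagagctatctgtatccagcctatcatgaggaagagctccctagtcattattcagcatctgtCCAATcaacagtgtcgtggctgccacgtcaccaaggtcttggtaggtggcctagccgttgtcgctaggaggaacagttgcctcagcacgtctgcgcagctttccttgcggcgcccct
Gm10785, chr16:91688648-91688947, plus strand: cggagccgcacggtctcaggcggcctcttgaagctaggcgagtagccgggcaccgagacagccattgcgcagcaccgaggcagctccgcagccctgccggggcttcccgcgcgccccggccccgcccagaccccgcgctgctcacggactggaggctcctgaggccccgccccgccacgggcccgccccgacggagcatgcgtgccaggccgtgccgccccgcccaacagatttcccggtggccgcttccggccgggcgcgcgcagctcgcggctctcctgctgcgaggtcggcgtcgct
A130077B15Rik, chr10:122569842-122570141, minus strand: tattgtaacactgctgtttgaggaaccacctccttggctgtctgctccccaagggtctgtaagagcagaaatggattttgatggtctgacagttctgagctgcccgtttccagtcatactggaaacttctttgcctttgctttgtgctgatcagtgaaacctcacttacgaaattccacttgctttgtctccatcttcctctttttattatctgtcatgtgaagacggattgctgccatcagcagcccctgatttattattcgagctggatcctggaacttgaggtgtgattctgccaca

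Promoter sequences were held for 7 of the 9, all but Gm17821 and F830016B08Rik. CCAAT, searched on both strands, was found 5 times in A630089N07Rik and 3 times in Kcnq1ot1 (no matches overlapped) and in none of the other 5. Of all 32851 promoters of the same length, 37.4% held at least 1 match, 3.37% at least 3 and 0.271% at least 5. TATAAA, searched likewise, was in 0 of the 7, against 13.6% of all promoters. Base composition also differed among the members: Gm10785 had 76.7% G and C and 42 CpG sites, Grk4 59.3% and 22, and A130077B15Rik 45.7% and 4, beside medians of 52.7% and 7 over all promoters. No sequence feature searched was shared by all 7.

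The transcripts themselves were rich in adenine. In the longest GENCODE M21 transcript of each gene, adenine made up 38.8% of A630089N07Rik, the highest share of the 2801 mouse genes matched, 33.5% of F830016B08Rik, 33.3% of Kcnq1ot1, 32.6% of A130077B15Rik, 32.5% of D630045M09Rik and 32.2% of Grk4. These 6 ranked among the 100 highest. Gm10785 (28.8%) and Gm17821 (28.4%) also lay above the median of 25.6%, and Vmn2r55 (22.8%) lay below it. Kcnq1ot1 was the longest transcript matched (93092 bases) and held 30 runs of at least 8 adenines, the longest of 41. In Gm10785, Gm17821 and D630045M09Rik the longest run was 5 adenines, beside a median of 6 over all matched genes, so long runs were not shared. The 60 bases around the longest run are shown for Kcnq1ot1 (transcript positions 69555 to 69614) and, as a noncoding member with a run of 7 near its 3′ end, for A130077B15Rik (positions 2485 to 2544 of 2547), with the run in capitals.
Kcnq1ot1: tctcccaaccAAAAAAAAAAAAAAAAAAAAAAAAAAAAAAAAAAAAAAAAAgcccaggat
A130077B15Rik: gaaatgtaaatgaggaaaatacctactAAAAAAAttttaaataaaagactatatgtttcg

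The loci are spread over 7 chromosomes. By the table's own row names A630089N07Rik and Gm10785 lie on chromosome 16, Kcnq1ot1 and Vmn2r55 on 7, Gm17821 on 12, A130077B15Rik on 10, Grk4 on 5, F830016B08Rik on 18 and D630045M09Rik on 13. In GENCODE M21 Kcnq1ot1 overlaps Kcnq1 on the opposite strand, and Gm10785 overlaps Atp5o, a subunit of the mitochondrial ATP synthase, and Cryzl1 in the same way. Opposite-strand partners are also annotated for A630089N07Rik (B230307C23Rik), Grk4 (Gm42560 and Mir467g) and F830016B08Rik (AC132320.1). The sources used here do not say whether strand was used in counting, so reads of these members and of their partners may not have been told apart. Of the partners the table held Atp5o alone, and its score ran against the mean of the 9 transcripts in every sample (Pearson r over cells -0.20 to -0.44). Of all mouse genes outside the 9, 90.1% did so too, so this was not particular to Atp5o.

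The table holds scores rather than counts, from -2.12 to 3.74, and 72.7% of the values are below 0. A score is a cell's level of a gene relative to other cells on the authors' scale, so levels of different genes cannot be ranked by it and no fold change can be given. The depth per cell is unknown. In untrained sample 2 high scores stop at 2.52: 48 of its 190 cells sat at this ceiling for A630089N07Rik, 44 for Kcnq1ot1, 45 for Gm10785, 36 for Gm17821, 27 for A130077B15Rik, 21 for Vmn2r55, 20 for F830016B08Rik, 19 for Grk4 and 9 for D630045M09Rik. That sample also had the widest scores: the median over all mouse genes of the SD between cells was 0.728, against 0.370 to 0.515 in the other samples. It held 41 of the 51 cells whose mean myeloid marker score was above 1. Training results for all sorted cells and for the cells above neither coreceptor gate are also given without these cells. Plates use the same well numbers (221 of 331 numbers occurred in more than 1 plate), and 0 pairs of cells had identical scores.

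The members were among the most variable rows of the table. Ranked by SD between cells within a sample, A630089N07Rik ranked 1st or 2nd in every sample, and Gm10785 between 1 and 3, whereas D630045M09Rik ranked between 14 and 31. Most cells were either low or high, with a share in between that differed between samples. In A630089N07Rik, for which scores spanned -0.924 to 2.48 in untrained sample 1, -1.23 to 2.52 in untrained sample 2, and -0.850 to 2.56, -0.818 to 2.57 and -1.14 to 2.51 in trained samples 1, 2 and 3, the medians were -0.249, -0.746, -0.255, -0.391 and -0.331. Scores above 1, taken here as high, were held by 27 of 144, 60 of 190, 11 of 66, 31 of 124 and 48 of 168 cells, and 6, 5, 7, 7 and 6 cells lay between 0.5 and 1. Between 0 and 1 lay 36, 12, 15, 11 and 18 cells, more than were high in untrained sample 1 and in trained sample 1. The high and low cells were present in all 5 samples, and their medians overlapped between the groups. A threshold on a score is a range and not a cell type.

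**Figure D1:**
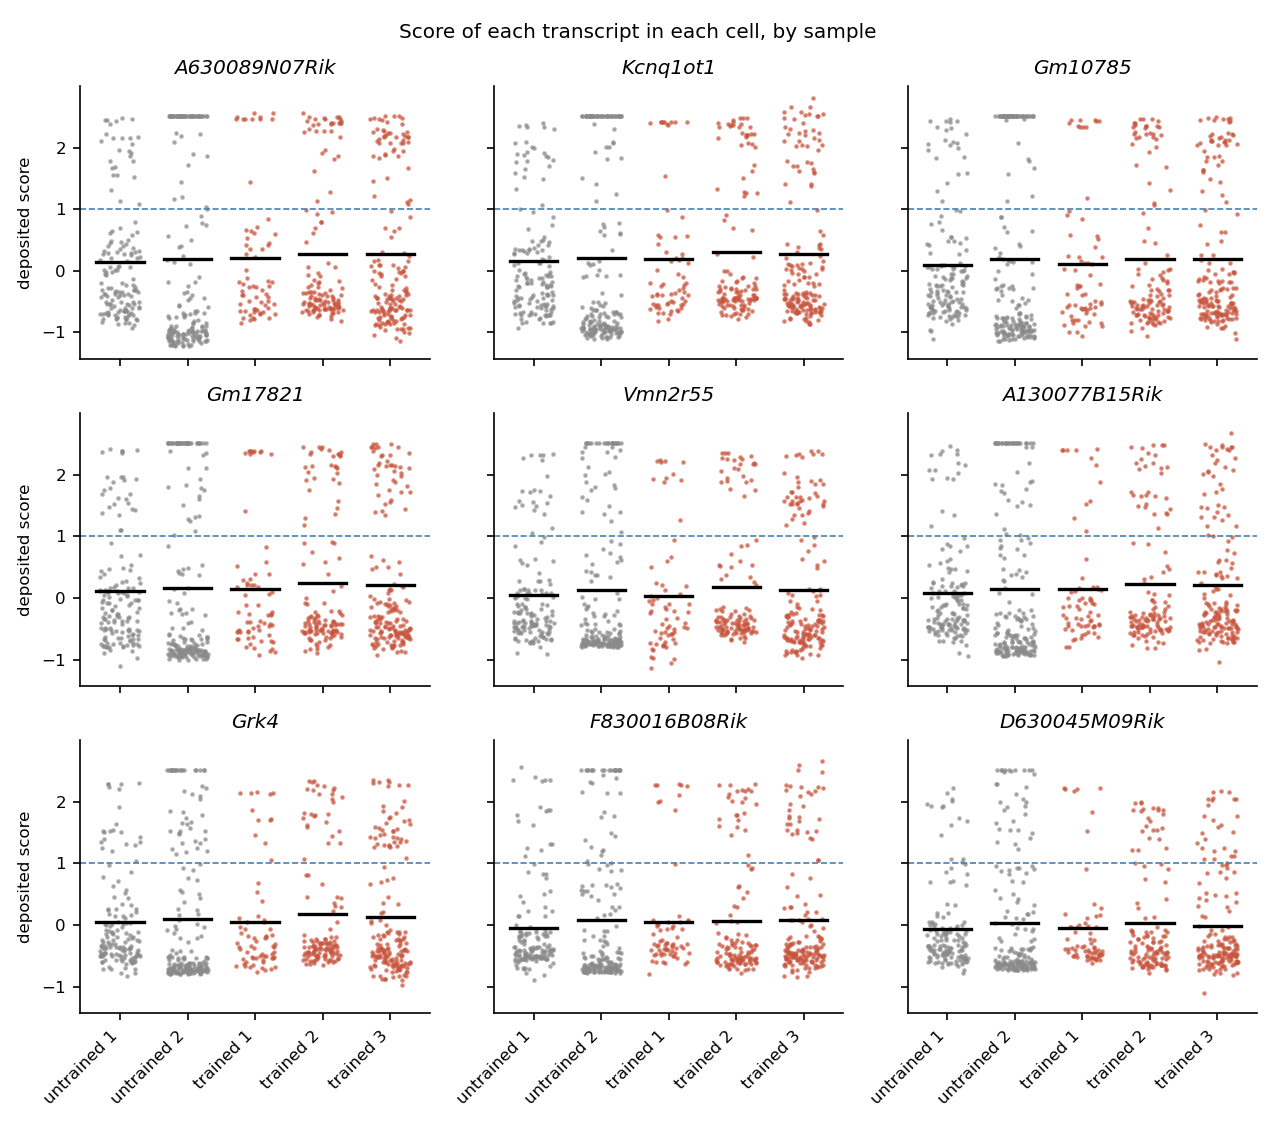
Deposited score (y axis, no unit) of each of the 9 transcripts in every cell of the 5 samples (x axis), with untrained samples in grey, trained samples in red, the sample mean as a black bar and the score of 1 as a dashed line. Every transcript shows a band of low cells and a smaller set of high cells in every sample, and the row of points at 2.52 in untrained sample 2 is its ceiling.

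Over the 692 cells, 499 (72.1%) had none of the 9 above 1, 79 (11.4%) had all 9 above 1, and 35 (5.06%) had 1 to 4. The high cells were nested. A630089N07Rik was above 1 in 177 cells and D630045M09Rik in 106, and 104 of these 106 were among the 177. Kcnq1ot1 was high in 172 cells, of which 166 were also high in A630089N07Rik, and Gm17821 in 166 cells, of which 164 were. Vmn2r55 (146 cells), Grk4 (152) and F830016B08Rik (124) were high together with A630089N07Rik in 99.3%, 99.3% and 99.2% of their high cells, and A130077B15Rik (142) in 94.4%. Cells high in a single member were few: 4 for A630089N07Rik, 4 for A130077B15Rik, 2 for Kcnq1ot1 and 0 for D630045M09Rik.

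At least 5 of the 9 were above 1 in 158 cells (22.8%). The share was 16.7% of the cells of untrained sample 1 (95% Wilson interval 11.5 to 23.6, which covers counting error only), 27.4% in untrained sample 2 (21.5 to 34.1), and 16.7% (9.57 to 27.4), 22.6% (16.1 to 30.7) and 25.6% (19.6 to 32.7) in trained samples 1, 2 and 3. The means were 22.0% ± 7.57 (SD, n = 2) in untrained and 21.6% ± 4.54 (SD, n = 3) in trained samples, a difference smaller than either SD. Without untrained sample 2 the trained mean was 4.95 percentage points the higher, and without trained sample 1 it was 2.07 points the higher, so the sign of the difference rested on single samples.

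Within each sample the 36 pairs of members were correlated over cells with a median Pearson r of 0.886 and 0.925 in untrained samples 1 and 2, and 0.879, 0.951 and 0.911 in trained samples 1, 2 and 3. The lowest pair in any sample had r = 0.790 (Vmn2r55 with D630045M09Rik in trained sample 1). Over all pairs of mouse genes the median r was 0.055 to 0.110. A first principal component held 90.7% to 95.1% of the variance of the 9. These correlations are over cells of the same library, which share plate, library and the authors' scaling, and they carry no test. Ranks gave lower values, with a median Spearman rho of 0.704 to 0.873. Correlation was also present among low cells: where no member was above 1 the median pair had r = 0.711, 0.677, 0.559, 0.641 and 0.723 in untrained 1 and 2 and trained 1, 2 and 3.

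A set of 6 members was tight and 3 were looser. Kcnq1ot1 and Gm17821 were the closest pair, with r = 0.987 as the mean of the 5 samples (0.981 to 0.993), followed by A630089N07Rik with Kcnq1ot1 (0.980) and with Gm17821 (0.980). Vmn2r55 and Grk4, 2 protein-coding genes of unrelated families on different chromosomes, had r = 0.972 (0.955 to 0.985). The lowest pair among A630089N07Rik, Kcnq1ot1, Gm10785, Gm17821, Vmn2r55 and Grk4 was Kcnq1ot1 with Vmn2r55 (0.956). A130077B15Rik, F830016B08Rik and D630045M09Rik had r between 0.839 and 0.915 with every other member, lowest for A130077B15Rik with D630045M09Rik. The noncoding transcripts did not sort together against the coding ones: Gm17821 and Grk4 (0.970) were closer than the noncoding RNAs A130077B15Rik and D630045M09Rik. Against the mean of the other 8, Gm17821 stood highest (r = 0.986) and D630045M09Rik lowest (0.882).

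**Figure D2:**
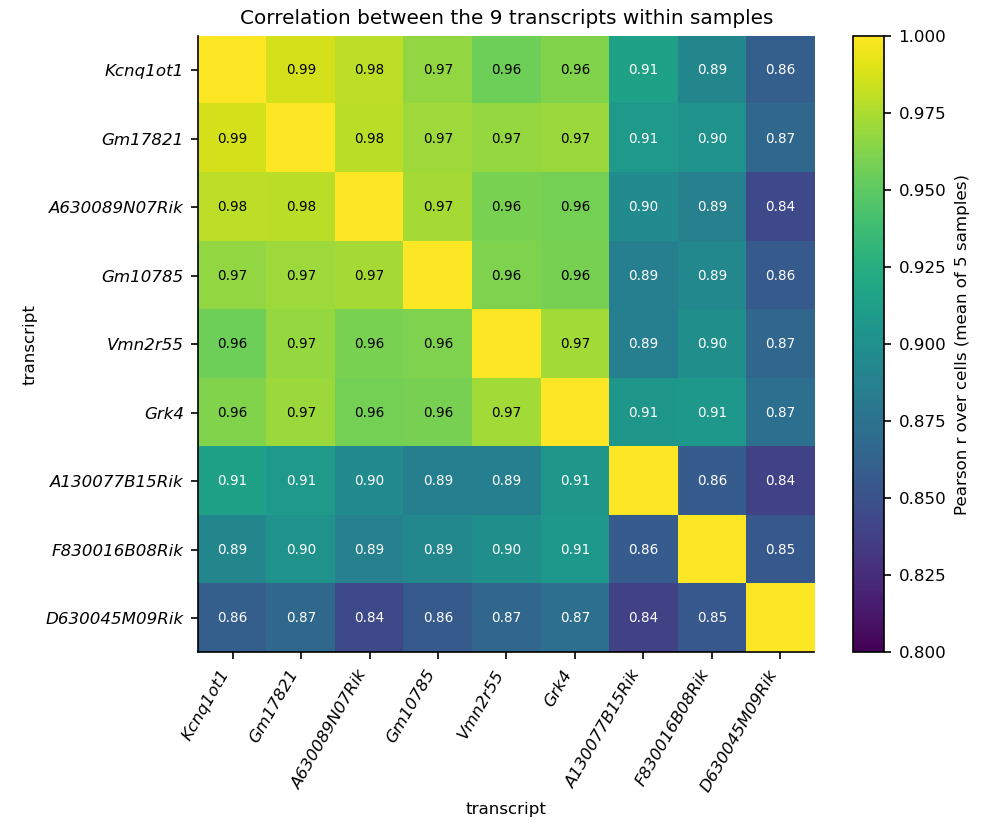
Pearson correlation over cells between each pair of the 9 transcripts, as the mean of the within-sample values of 5 samples (colour scale from 0.8 to 1, value in each square). The first 6 transcripts form a block at 0.956 to 0.987, and A130077B15Rik, F830016B08Rik and D630045M09Rik lie between 0.839 and 0.915.

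Rows outside the 9 were ranked by the mean within-sample r with the mean score of the 9. Slfn9, of the Schlafen family, had r = 0.907 (0.882 to 0.930 over the 5 samples), as close as the loosest member (D630045M09Rik, r = 0.902 with a mean that includes it). Next to it stood the clone-named D830005E20Rik (0.845), 9930111J21Rik1 (0.829), 5530601H04Rik (0.814) and 4930470H14Rik (0.791). The DNA repair gene Aplf (0.786), the mitochondrial acyl-CoA dehydrogenase Acad9 (0.784), Gm17644 (0.771) and the telomere-binding gene Pot1b (0.769) were also among the 10 most alike. In the 158 cells high in at least 5 members the mean score of Slfn9 was 1.52, against -0.396 in the cells with no member high.

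Most of the transcriptome ran the other way. Of the 2917 mouse genes that are no members, 2629 (90.1%) had a negative r with the mean of the 9 in all 5 samples and 187 (6.41%) a positive r in all 5, with a median of -0.271. The mean score of all these genes had r = -0.815 with the mean of the 9 (-0.744 to -0.876). The opposition of single gene groups is to be read against this background. The 10 most opposed genes were led by Tpt1, the translationally controlled tumour protein gene (r = -0.731), the translation elongation factor Eef1a1 (-0.718), the actin-binding Tmsb4x (-0.708), the class I light chain B2m (-0.707) and the ribosomal protein gene Rplp1 (-0.704), with Actb, Rpl13a, Rps24, Rpl19 and Rps16 between -0.692 and -0.665. Their mean scores in cells high in at least 5 members lay between -0.813 (B2m) and -0.627 (Rpl19).

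Ribosomal protein genes, which encode the protein part of the ribosome, had the strongest opposition of the lists examined. Of 70 measured, 69 had a negative r in all 5 samples, and the median gene had r = -0.609. Their mean score had r = -0.789 and -0.657 in untrained samples 1 and 2 and -0.724, -0.824 and -0.781 in trained samples 1, 2 and 3. It averaged -0.560 in cells high in at least 5 members and 0.262 in cells with none. Among the members the relation was strongest for A630089N07Rik (mean r = -0.766) and Kcnq1ot1 (-0.762) and weakest for D630045M09Rik (-0.670).

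The T cell markers opposed the members as well. Of the 14 listed 11 were measured, all 11 negative in all 5 samples, with a median r of -0.347. The 3 strongest were Thy1 (-0.519), the T cell receptor subunit Cd3e (-0.490) and the kinase Lck (-0.480). Their mean had r = -0.717 and -0.484 in untrained and -0.538, -0.746 and -0.732 in trained samples. In cells high in at least 5 members the mean score of Cd3e was -0.426, against 0.240 in cells with none. The sorted cells high in the 9 transcripts thus scored low for a defining T cell marker. Of all mouse genes outside the 9, 90.1% had a negative r in all 5 samples, with a median of -0.271. The direction was therefore not particular to T cell markers. Markers of other cells were no higher in the cells high in the 9. The 6 measured of 18 myeloid markers were all negative in 5 of 5 samples (mean r = -0.452; C1qb -0.376, Tyrobp -0.367), and the 2 of 9 oligodendrocyte markers (Mbp -0.382, Cnp -0.373), the 2 of 5 natural killer markers (Nkg7 -0.495, Klrd1 -0.314) and the 1 of 6 endothelial markers (Bsg -0.348) were negative too. None of the listed neuron, astrocyte, B cell or erythroid markers was among the rows, so these cells could not be assessed. Of the 51 cells with a mean myeloid score above 1, 1 was high in at least 5 members.

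The 12 mitochondrially encoded messenger RNAs, whose products are subunits of the respiratory chain, were negative in all 5 samples for 12 of 12 (mean r of their mean -0.660; mtCo3 -0.661, mtCo1 -0.657, mtCo2 -0.652). The 4 mitochondrial ribosomal and transfer RNA genes were split. In all 5 samples 3 were negative (mt-Rnr1 -0.509, mt-Rnr2 -0.450 among them) and 1, mt-Tm, was positive (0.471). The heat shock and dissociation genes, 15 of 20 measured, were negative for 15 of 15 (-0.716; Hspa8 -0.573), and the apoptosis genes, 4 of 10 measured, for 4 of 4 (-0.357; Bax -0.339). Other nuclear or repeat-rich transcripts did not share 1 direction: of 5 measured, Malat1, an abundant nuclear noncoding RNA, had r = -0.423 and Rn45s, the ribosomal RNA precursor, -0.440, whereas Mid1, a ubiquitin ligase gene, had 0.713.

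The relatives of single members were split. The other vomeronasal receptor rows followed the members, with r = 0.701 for Vmn1r58, 0.592 for Vmn1r65 and 0.418 for the pseudogene Vmn2r-ps129, positive in all 5 samples. The other receptor kinase and arrestin genes did not follow Grk4: Arrb2 (-0.402), Adrbk1 (-0.383) and Grk6 (-0.357) were negative in all 5. Of 15 listed genes of the imprinted cluster around Kcnq1ot1, 2 were measured, Nap1l4 (-0.323) and Tspan32 (-0.235), both negative in all 5 samples. Of all mouse genes that are no members 90.1% were so too, with a median r of -0.271. The negative sign was thus not particular to these 2 genes or to the receptor kinase and arrestin genes. Silencing by Kcnq1ot1 was not tested. Of the 89 other predicted or clone-named transcripts 49 were positive and 38 negative in all 5 samples (mean r of their mean 0.762, median gene 0.251).

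By annotated class, the 48 long noncoding RNAs that are no members had a median r of 0.308, with 30 positive and 18 negative in all 5 samples, and the 16 transcribed pseudogenes 0.296. The 2830 other protein-coding genes had a median of -0.273, with 144 positive and 2586 negative. By sequence, the 78 matched genes with a mean r above 0.5 had a median of 28.3% adenine and a longest adenine run of 8, and the 93 genes below -0.5 had 24.4% and 5. The latter were also shorter (median 1271 against 3437 bases). These are properties of annotated transcripts across genes, which are not independent replicates, and their part in the scores was not tested.

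**Figure D3:**
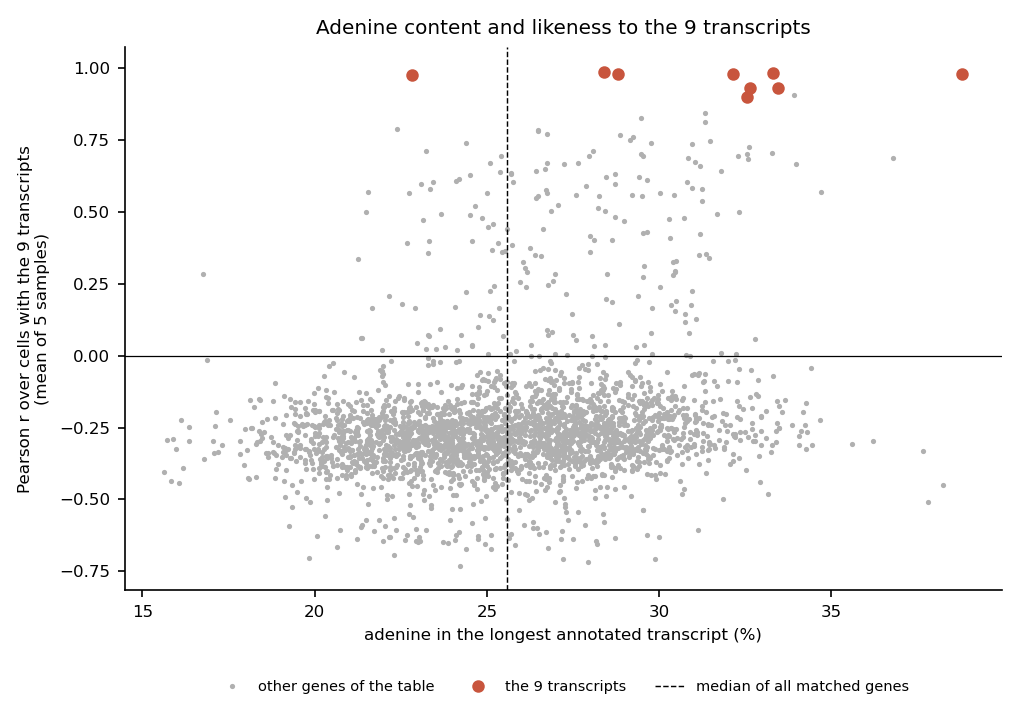
Adenine share of the longest annotated transcript (x axis, percent) against the mean within-sample correlation with the mean score of the 9 transcripts (y axis, which for the 9 includes each transcript itself), with 1 point per matched gene and the 9 in red. Of the 9, 8 lie to the right of the median of 25.6% and Vmn2r55 to its left, and most other genes lie below 0 on the y axis.

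Spike-ins, synthetic RNAs added as an external standard, were less closely related to the members than ribosomal protein genes or T cell markers were. The mean of the 41 spike-in rows had r = -0.224 and -0.125 in untrained samples 1 and 2 and -0.221, -0.313 and -0.157 in trained samples 1, 2 and 3. Single spike-ins had a median r of -0.086, with 23 negative and 2 positive in all 5 samples. By ranks the mean relation changed sign (Spearman rho = 0.088), so no direction is given. Over single mouse genes that are no members the median r with the spike-in mean was -0.052 (80.2% negative), beside -0.214 over the 9, and 130 of these genes lay below the members' median. The members' Pearson r ran from A630089N07Rik (r = -0.117) and Kcnq1ot1 (-0.144) over Gm10785 (-0.159), Gm17821 (-0.180), A130077B15Rik (-0.214), Vmn2r55 (-0.236), Grk4 (-0.253) and F830016B08Rik (-0.261) to D630045M09Rik (-0.296). The spike-in mean had r = -0.129 with ribosomal protein genes, -0.128 with T cell markers and -0.222 with the mean of all other mouse genes, and -0.562 with the 89 predicted or clone-named transcripts. Its relation to both lists was weaker than that of the members.

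**Figure D4:**
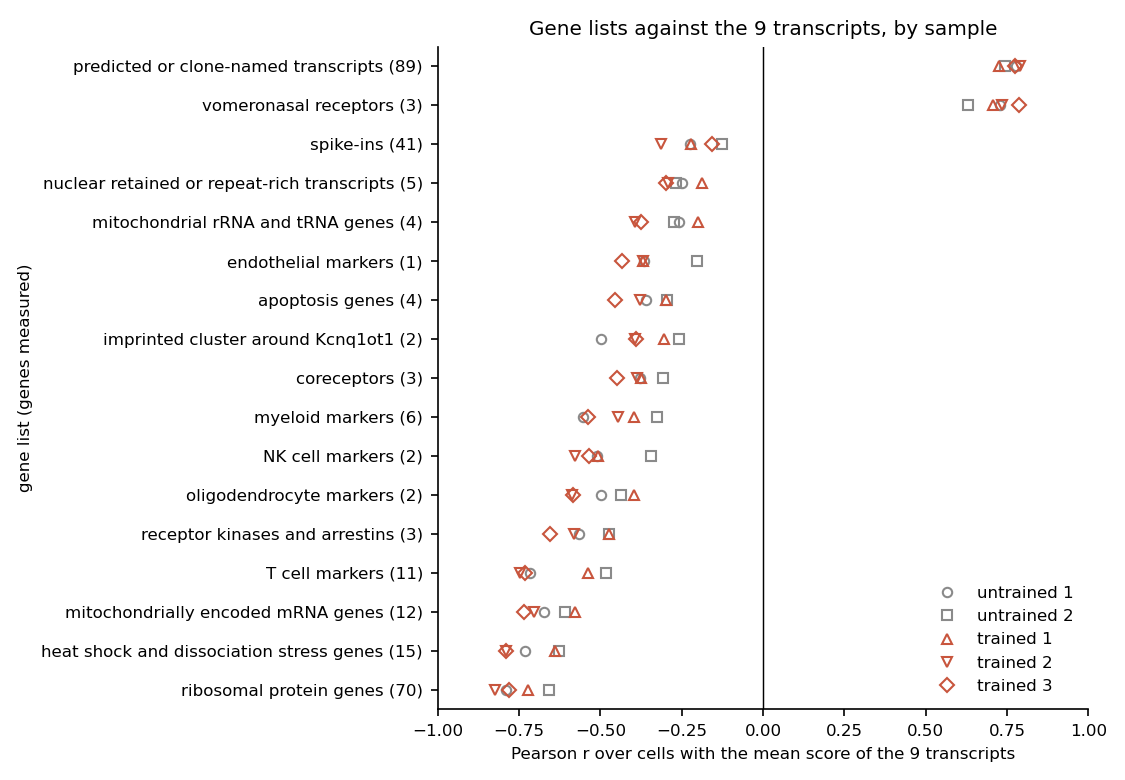
Pearson correlation over cells (x axis, no unit) between the mean score of each gene list (y axis, number of genes measured in brackets) and the mean score of the 9 transcripts, with 1 symbol per sample (grey untrained, red trained). Ribosomal protein genes lie between -0.824 and -0.657, spike-ins between -0.313 and -0.125, and the predicted or clone-named transcripts between 0.726 and 0.789.

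The members were then set against the T cell coreceptors, which mark cytotoxic (Cd8a, Cd8b1) and helper (Cd4) T cells. A cell was counted above the CD8 gate where the mean score of Cd8a and Cd8b1 was above 0, and above the CD4 gate where Cd4 was. At least 5 members were high in 25 of 159 cells above the CD8 gate alone (15.7%), 15 of 146 above the CD4 gate alone (10.3%), 1 of 57 above both (1.75%) and 117 of 330 above neither (35.5%). Cells above neither gate thus held 74.1% of all cells high in the 9. In every sample this share was higher above neither gate than above the CD8 gate or the CD4 gate, for example 28.8% against 13.9% and 8.57% in untrained sample 1 and 38.0% against 11.8% and 13.2% in trained sample 2. Each of the 9 had its highest mean over the 5 samples above neither gate, from 0.670 ± 0.192 (SD, n = 5) for A630089N07Rik to 0.252 ± 0.109 for D630045M09Rik, and its lowest above both gates (-0.539 ± 0.303 and -0.443 ± 0.138). Since the 3 coreceptor genes themselves run against the members (r = -0.180 to -0.285), as most genes do, this is a description.

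No member differed past the threshold when CD8-gated cells were set against CD4-gated cells within samples. The comparison was fitted with limma on the mean score per sample and class, with sample as a block and Benjamini-Hochberg adjustment over 2923 genes (adjusted p under 0.05 called). It called 5 genes (0.171% of those tested) and 0 of the 9 members. All 9 were the higher in CD8-gated cells on average, by 0.024 (A130077B15Rik) to 0.199 (F830016B08Rik, SE 0.090, adjusted p = 0.359), but each member was lower there in 2 or 3 of the 5 samples. None of the 9 had the same sign in all 5 samples, beside 4.45% of genes higher and 9.37% lower in all 5. A630089N07Rik had means of 0.074, 0.064, 0.009, -0.173 and -0.152 in the CD8-gated and 0.036, -0.607, -0.404, 0.054 and 0.104 in the CD4-gated cells of untrained 1 and 2 and trained 1, 2 and 3. The CD4-gated cells of untrained 2 and trained 1 were low, and the classes overlapped. The adjusted p of the 9 ran from 0.359 to 0.939.

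Training was compared over samples with limma on mean scores, with Benjamini-Hochberg adjustment over 2926 genes. In all sorted cells 0 genes passed the threshold, and so 0 of the 9. Of the 2967 rows, 1632 averaged 0 across the 190 cells of untrained sample 2, though 0 of the 9 members did. For the rows that averaged 0 the scaling had fixed the level of that sample before the groups were compared. The 9 members all had cells at the ceiling of that sample, from 9 (D630045M09Rik) to 48 (A630089N07Rik). Their means there, and so their training differences, rest in part on cut-off scores. The 0 calls therefore cannot show that training was without effect. An unadjusted p under 0.05 was reached by 226 genes (7.72%), among them A630089N07Rik, Kcnq1ot1 and A130077B15Rik. A630089N07Rik had means of 0.149 and 0.188 (untrained) and 0.200, 0.279 and 0.271 (trained), and A130077B15Rik 0.081 and 0.142 against 0.147, 0.224 and 0.203. In both the groups did not overlap, 2 of 9 members where 11.0% of all genes lay apart with trained the higher. Kcnq1ot1 had 0.160 and 0.204 against 0.198, 0.300 and 0.275, and Gm17821 0.114 and 0.161 against 0.141, 0.239 and 0.213, with trained sample 1 inside the untrained range. Gm10785 had 0.094 and 0.190 against 0.110, 0.184 and 0.190, Vmn2r55 0.049 and 0.134 against 0.029, 0.177 and 0.123, and Grk4 0.046 and 0.104 against 0.055, 0.183 and 0.124, all overlapping. F830016B08Rik (-0.043 and 0.091 against 0.047, 0.074 and 0.084) and D630045M09Rik (-0.057 and 0.030 against -0.043, 0.041 and -0.021) overlapped too.

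The trained minus untrained difference of the 9 in all sorted cells ran from 0.006 (D630045M09Rik, SE 0.032) to 0.082 (A630089N07Rik, SE 0.028), with adjusted p from 0.518 to 0.963. The median of the 9 was 0.046, beside a median of -4.0e-05 over all genes tested, to which the same limit of whole-sample means applies. When the 51 cells with a mean myeloid score above 1 were left out, 8 of the 9 differences turned negative (-0.013 to -0.063), and no direction is given. Mean myeloid marker scores were -0.106, -0.175 and -0.112 in trained and -0.082 and 0.029 in untrained samples.

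In the cells above exactly 1 gate, 71 and 60 (untrained) and 33, 72 and 69 (trained), 0 genes passed. An unadjusted p under 0.05 was reached by 110 genes (3.76%) and by 0 of the 9. The 9 members had differences from -0.082 (Vmn2r55) to 0.037 (A130077B15Rik), 3 above and 6 below 0, with adjusted p of 0.990 to 0.999. The means of A630089N07Rik were 0.056 and -0.249 (untrained) and -0.191, -0.053 and -0.044 (trained), so the trained samples lay between the untrained ones. For F830016B08Rik (-0.075 and -0.135 against -0.206, -0.210 and -0.145) and D630045M09Rik (-0.141 and -0.180 against -0.193, -0.205 and -0.227) the trained samples were all lower, 2 of 9 where 5.60% of all genes lay apart in that direction.

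Above neither gate, where most cells high in the 9 lay, 8 of the 9 members passed the threshold in the fit as planned, with trained the higher. In 2 of 11 other settings 8 or more passed. In these cells (52 and 124 untrained, 25, 50 and 79 trained) 13 genes passed (0.444%), 8 of them members: A630089N07Rik, Kcnq1ot1, Gm10785, Gm17821, Vmn2r55, A130077B15Rik, Grk4 and F830016B08Rik. A630089N07Rik had means of 0.469 and 0.460 (untrained) and 0.877, 0.788 and 0.755 (trained), a difference of 0.342 (SE 0.046, adjusted p = 0.0061). Kcnq1ot1 had 0.492 and 0.462 against 0.783, 0.804 and 0.730 (0.295, SE 0.043, adjusted p = 0.0061), and Gm17821 0.413 and 0.391 against 0.694, 0.710 and 0.659 (0.286, SE 0.042, adjusted p = 0.0061). In all 3, long or processed noncoding transcripts, the lowest trained sample lay above the highest untrained one. F830016B08Rik had 0.136 and 0.238 against 0.496, 0.504 and 0.429 (0.289, adjusted p = 0.0121), and Gm10785 0.428 and 0.456 against 0.739, 0.729 and 0.632 (0.258, adjusted p = 0.0228). For the GTPase gene the untrained samples were further apart from each other than for the others. A130077B15Rik had 0.370 and 0.368 against 0.590, 0.694 and 0.563, Vmn2r55 0.295 and 0.312 against 0.499, 0.606 and 0.516 (both adjusted p = 0.0321), and Grk4 0.280 and 0.279 against 0.476, 0.613 and 0.470 (adjusted p = 0.0463). D630045M09Rik had 0.141 and 0.163 against 0.259, 0.414 and 0.280 and did not pass (0.166, SE 0.050, adjusted p = 0.154). Trained samples were all higher for 9 of 9, where 6.12% of all genes lay apart with trained the higher. Other genes called, named for being few, included Gm20300 and Slfn9 (higher in trained) and Zfp36 and Ctss (lower).

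The 8 calls are of rows that vary almost as 1 and are not 8 separate observations. The samples of a group also lay closer together than their standard errors over cells: for A630089N07Rik the untrained means differed by under 0.01, whereas their standard errors over cells were 0.147 and 0.144, and 0.251, 0.187 and 0.144 (trained). The SE of the fit for this gene, 0.046, was smaller than each of these. It rests on the spread between samples alone, so the SEs and adjusted p of the 8 calls may be too small. The share of these cells high in at least 5 members was 28.8% (95% Wilson interval 18.3 to 42.3) in untrained sample 1, 33.9% (26.1 to 42.6) in untrained sample 2, and 36.0% (20.2 to 55.5), 38.0% (25.9 to 51.8) and 40.5% (30.4 to 51.5) in trained samples 1, 2 and 3. All 5 intervals overlap. Of the 124 such cells of untrained sample 2, 35 had a mean myeloid score above 1, against 0 in untrained sample 1 and 1, 2 and 1 in trained samples 1, 2 and 3. The 6 measured myeloid markers were all lower in the trained samples (median difference -0.244, beside -0.034 over all genes), of which Ctss passed. Without the cells high in them all 9 differences of the members were smaller (0.062 to 0.172) and 0 genes passed. With scores divided by the SD of the gene in its sample, or with the gates at 0.25, 0 genes passed (members 0.204 to 0.317 and 0.072 to 0.148), and without untrained sample 2, 2 members did. Without untrained sample 1, 3 members passed, and without trained samples 1, 2 and 3, 8, 6 and 5 did. With medians over cells or with spike-ins in the fit 7 members passed, and with samples weighted by their cells all 9 did. In the fit on medians all 9 had the same SE (0.079), so the spread of each member between samples did not enter it. Grk4, nearest to the threshold, lost its call with spike-ins in the fit and without each sample but trained sample 1. The difference was above 0 for 9 of 9 members under each setting tried.

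A direct test of whether the training difference of a member differed between cells above 1 gate and above neither, added after these results were seen, called 0 of 2926 genes (limma, Benjamini-Hochberg). An unadjusted p under 0.05 was reached by 243 genes (8.30%), among them all 9 members. The difference between the classes was lower in all trained samples for 8 of the 9 (not A130077B15Rik), where 5.43% of all genes lay apart in that direction. The 9 had differences of differences from -0.371 (F830016B08Rik) to -0.209 (A130077B15Rik), with adjusted p of 0.359 to 0.535. Without the myeloid-high cells they shrank to between -0.268 and -0.086 (A630089N07Rik -0.173), and only F830016B08Rik kept an unadjusted p under 0.05. Without untrained sample 1 they lay between -0.290 and -0.091 (A630089N07Rik -0.193), with F830016B08Rik and Vmn2r55 under 0.05, and 15 genes but 0 members passed. Without untrained sample 2 they lay between -0.489 (A630089N07Rik) and -0.244, and 0 genes passed. With the gates at 0.25 they lay between -0.076 and 0.020. A training effect on the members particular to the cells above neither gate was thus not shown.

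**Figure D5:**
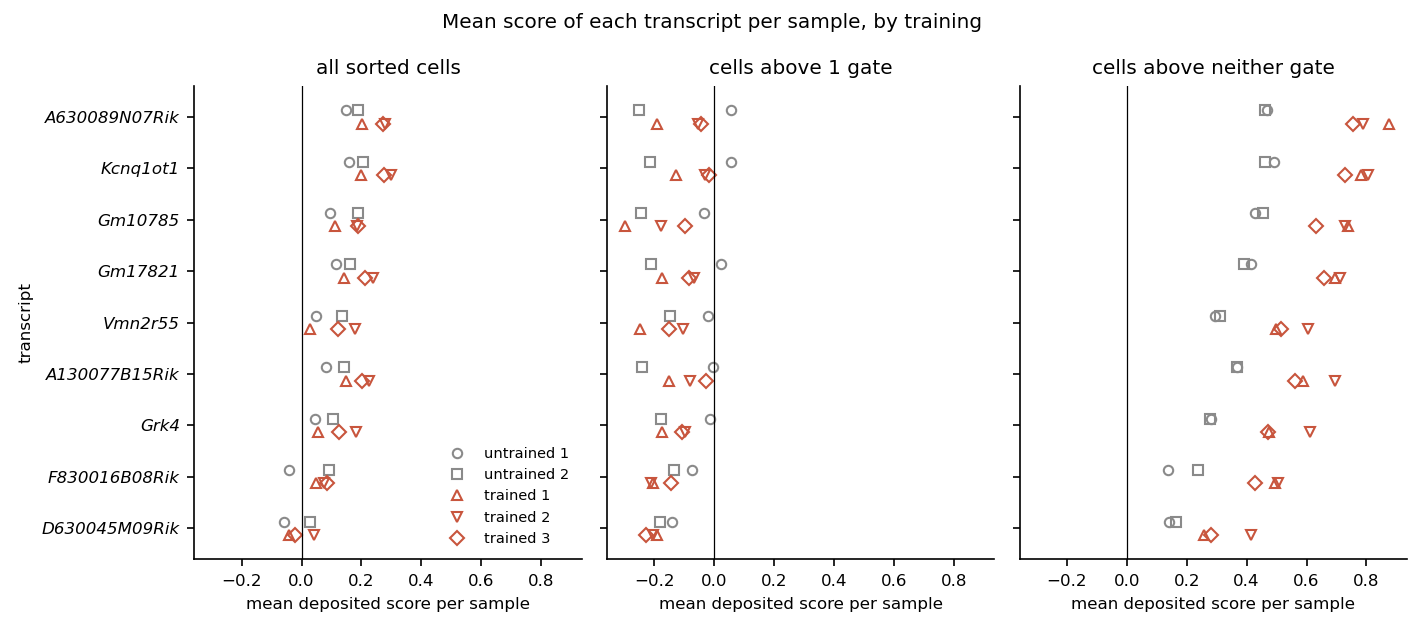
Mean deposited score per sample (x axis, no unit) of each of the 9 transcripts (y axis) in all sorted cells, in cells above exactly 1 coreceptor gate and in cells above neither gate, with 1 symbol per sample (grey untrained, red trained). The groups overlap for 7 of 9 transcripts in all sorted cells and for none above neither gate, where untrained sample 2 holds 35 cells with a high myeloid score.

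The relation of the members to the well number, whose place on the plate the labels do not give, differed between samples. The mean score of the 9 in the lower minus the upper well numbers, split at the middle of the plate's numbering, was 0.202 and 0.022 in untrained samples 1 and 2 and -0.020, 0.017 and 0.364 in trained samples 1, 2 and 3. In the last of 4 equal blocks of well numbers at least 5 members were high in 0 of 18 cells of untrained sample 1, which allows a share of up to 16.7%, and in 0 of the 7 such cells in trained sample 1 (a share of up to 42.9% is allowed). Both limits are 3 divided by the number of cells, which is rough for so few cells. The mean score of the 9 was not low in that block. It was 0.081 in untrained sample 1, after 0.295, -0.030 and -0.149 in the earlier blocks. In trained sample 1 it was 0.266, after 0.162, 0.017 and 0.015. In that block the share was 12.1% in trained sample 3, below the 32.1% of its first block, whereas untrained sample 2 had 30.4% against 27.3% and trained sample 2 had 31.8% against 10.8%. The part of the well number in the results was not tested.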

How the data were processed

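Single CD3+ cells from 5 samples had been enriched on 37% Percoll, sorted into 384-well plates and read by SORT-seq, per the labels' protocols. The suffix of each cell's name gave its sample. Cell Ranger was used, per the submitters' processing notes, which name no version. Genome build, normalisation and strand setting: not given in the sources used here. The deposited table holds scores by its values: 0 are whole numbers, and in untrained sample 2 1335 rows topped out at 2.52, the root of the cell number divided by 30 (tolerance 1e-06). How the authors made these scores no label states. They allow no count test, and depth is unknown. A second table of 384 columns repeated the first columns of the main one (largest difference 5.0e-10) and was not used.

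Mean scores per sample were fitted with limma 3.58.1 (R 4.3.3), two-sided, with Benjamini-Hochberg adjustment over all mouse genes. The fit was also run on simulated means drawn independently for each gene. The members are correlated, so that run does not cover their calls. Correlations were computed within samples over cells (numpy 2.4.6, Python 3.11.15). The members, lists and tests were chosen with earlier results of these data known, and the list of mitochondrially encoded messenger RNAs, the test of gated against ungated cells and the fit above neither gate without myeloid-high cells were added after the table was seen. Named genes were the 9 members, the 10 rows most like and most opposed to them and the 3 strongest of each list. One item among these is not reported here. Alternatives were medians over cells, SD-scaled scores, weights, other gates, spike-ins in the fit and each sample left out. Promoters came from RefSeq GRCm38.p6 and transcripts from GENCODE M21 (2801 of 2926 genes matched), by symbol.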

Additional observations from a re-analysis of the deposited data

How the results depend on the processing

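Where an alternative changed a sign or a call, the cause was not tested. The median correlation between members (0.911) was 0.813 by Spearman, that with predicted or clone-named transcripts (0.762) was 0.521, and that with spike-ins (-0.208) turned to 0.088. The correlations with the ribosomal, T cell, mitochondrial messenger RNA, myeloid and nuclear lists kept their sign under each alternative run. The training difference in the share of cells high in the members (-0.403 percentage points) ranged from -5.75 to 4.95 with each sample left out. Above neither gate the 13 genes called became 7 with medians over cells, 0 with SD-scaled scores, 138 with samples weighted by cells, 0 with gates at 0.25, 0 without myeloid cells and 2 to 32 with each sample left out. The 0 calls in all sorted cells became 0 to 3, the 5 between CD8-gated and CD4-gated cells became 0 with medians, 53 with SD-scaled scores and 0 to 7, and the 0 in the test of gated against ungated cells became 0 to 15.

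In all sorted cells, the differences without myeloid cells were -0.013 for A630089N07Rik, -0.014 for Kcnq1ot1, -0.063 for Gm10785, -0.025 for Gm17821, -0.056 for Vmn2r55, -0.024 for Grk4, -0.020 for F830016B08Rik and -0.048 for D630045M09Rik. With each sample left out they ranged from -0.029 to 0.067 for Gm10785, -0.025 to 0.060 for Vmn2r55, -0.022 to 0.112 for F830016B08Rik and -0.037 to 0.050 for D630045M09Rik. In cells above 1 gate, medians over cells gave 0.050 for Gm10785, 0.092 for Gm17821, 0.00921 for Vmn2r55, 0.036 for Grk4, 0.080 for F830016B08Rik and 0.052 for D630045M09Rik, and gates at 0.25 gave 0.090, 0.128, 0.051, 0.105, 0.055 and 0.029. SD-scaled scores gave -0.033 for A630089N07Rik and -0.012 for Kcnq1ot1 there. Leaving out each sample gave -0.152 to 0.153 for A630089N07Rik, -0.113 to 0.155 for Kcnq1ot1, -0.156 to 0.052 for Gm10785, -0.132 to 0.102 for Gm17821, -0.081 to 0.156 for A130077B15Rik and -0.112 to 0.050 for Grk4. Between CD8-gated and CD4-gated cells, medians gave -0.017 for Gm10785, -0.019 for Gm17821, -0.023 for Vmn2r55, -0.117 for A130077B15Rik and -0.017 for D630045M09Rik. Gates at 0.25 gave -0.00376 for Gm10785, -0.068 for A130077B15Rik and -0.055 for D630045M09Rik, and weights -0.00812 for A130077B15Rik. Leaving out each sample gave -0.00776 to 0.224 for A630089N07Rik, -0.092 to 0.103 for A130077B15Rik and -0.029 to 0.108 for D630045M09Rik. In the test of gated against ungated cells, gates at 0.25 gave 0.00462 for A630089N07Rik, 0.020 for Kcnq1ot1, 0.00254 for Gm17821, 0.018 for A130077B15Rik and 0.00269 for Grk4.

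No paired analysis was possible between trained and untrained samples because the labels carry no replicate numbers. Comparisons of cell classes were made within samples. The table gives no depth, 2 and 3 samples per group give few residual degrees of freedom, and the gates, being scores, oppose the members to some extent by themselves.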
